A study of Sus scrofa with 34 samples.

Results

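The pig liver genes examined here, 8 of the 25880 genes in the count tables, stood lower with oxidized oil, with a phytogenic feed additive or with both. They are ETNPPL, DEF6, ARHGEF28, DLEC1, DZANK1, CCDC159 and the unnamed genes ENSSSCG00000032058 and ENSSSCG00000035189. The genes were listed because their liver level was low in the additive or the oil diet against the control diet. Those 2 comparisons are therefore given below as descriptions, and the question was whether both diets lower the same genes. All 8 genes passed the filter on low counts in liver, among 13831 genes kept, and 7 of the 8 passed in ileum, among 14300 kept.

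The study fed weaned crossbred piglets 1 of 4 diets for 28 days and sequenced poly(A) RNA of liver and ileum at day 28. The control diet was a basal diet with fresh rapeseed oil, and the PFA diet was the same with a phytogenic feed additive, a blend of essential oils and related compounds. The OO diet held rapeseed oil that had been oxidized by heating, to impose oxidative stress, and the OO + PFA diet held the oxidized oil and the additive. The oxidized oil was added at a much larger share than the fresh oil of the control diet, which made the oil diets richer in fat and energy, so oxidation and the amount of oil cannot be told apart. Liver was sequenced from 6 pigs per diet, and ileum from 5 control and 5 PFA pigs that also gave a liver. Both sexes were present in every diet, and each diet had only its own pen, so that effects of the diet and of the pen cannot be told apart. One OO + PFA liver, pig OP-77, was left out of the fits, which leaves 5 OO + PFA livers. The study excluded an OO + PFA liver for suspected RNA degradation without naming the pig, and OP-77 was taken to be that liver because its mapping rate was the lowest. A pig's name is its diet code and number, with C standing for control, P for PFA and OP for OO + PFA.

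The named genes belong to different processes. ETNPPL encodes an enzyme that breaks down phosphoethanolamine, the building block from which cells make the membrane lipid phosphatidylethanolamine. DEF6 and ARHGEF28 encode guanine nucleotide exchange factors, proteins that switch on small GTPases, and DEF6 is best known from T cells. DLEC1 is a cilium-associated protein and candidate tumour suppressor, and DZANK1 has been linked to transport towards cilia. CCDC159 encodes a coiled-coil protein.

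On the pig genome Sscrofa11.1, DZANK1 lies on the minus strand at chr17:26651159-26719208 and the other 5 named genes on the plus strand. ETNPPL is at chr8:113363047-113384783, DEF6 at chr7:31191788-31216436 and DLEC1 at chr13:22873210-22964971. ARHGEF28 at chr2:82760754-83102126 and CCDC159 at chr2:70039954-70060456 share a chromosome. For 3 of them the start faces the start of a neighbour on the other strand. The gap is 130 bp between DZANK1 and POLR3F, a subunit gene of RNA polymerase III, 152 bp between CCDC159 and TMEM205, a membrane protein gene, and 259 bp between DLEC1 and PLCD1, a phospholipase C gene. The start regions of these 3 genes are shown because each window holds the whole short gap or nearly all of it, and that of ARHGEF28 because it is the one gene of the list with no lower level in the oil diet. Each runs 5′ to 3′ on the strand of the gene, from 250 bases before its start to 50 after, read from the Sscrofa11.1 genome with RefSeq starts, at chr17:26719159-26719458 (minus strand), chr2:70039704-70040003, chr13:22872960-22873259 and chr2:82760504-82760803. Capitals mark GGGCGG (GC box) and TGACNNNGC (core of the antioxidant response element) on either strand.
DZANK1: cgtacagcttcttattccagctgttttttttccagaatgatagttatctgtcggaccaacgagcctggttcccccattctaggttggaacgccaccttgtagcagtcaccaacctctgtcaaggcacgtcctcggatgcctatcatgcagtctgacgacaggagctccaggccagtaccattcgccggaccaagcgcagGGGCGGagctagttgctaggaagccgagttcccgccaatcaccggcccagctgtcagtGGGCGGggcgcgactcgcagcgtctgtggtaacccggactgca
CCDC159: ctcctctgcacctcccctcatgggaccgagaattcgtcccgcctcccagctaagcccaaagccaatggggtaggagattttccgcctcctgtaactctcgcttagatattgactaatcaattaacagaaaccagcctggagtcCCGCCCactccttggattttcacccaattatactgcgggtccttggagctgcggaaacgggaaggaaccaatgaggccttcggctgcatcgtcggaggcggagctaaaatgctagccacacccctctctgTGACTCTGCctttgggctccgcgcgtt
DLEC1: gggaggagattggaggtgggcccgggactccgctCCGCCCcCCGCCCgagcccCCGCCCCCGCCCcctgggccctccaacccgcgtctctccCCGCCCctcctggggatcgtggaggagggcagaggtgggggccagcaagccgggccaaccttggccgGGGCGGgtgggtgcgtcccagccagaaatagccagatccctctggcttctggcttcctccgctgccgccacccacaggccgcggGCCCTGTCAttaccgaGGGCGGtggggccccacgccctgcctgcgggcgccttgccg
ARHGEF28: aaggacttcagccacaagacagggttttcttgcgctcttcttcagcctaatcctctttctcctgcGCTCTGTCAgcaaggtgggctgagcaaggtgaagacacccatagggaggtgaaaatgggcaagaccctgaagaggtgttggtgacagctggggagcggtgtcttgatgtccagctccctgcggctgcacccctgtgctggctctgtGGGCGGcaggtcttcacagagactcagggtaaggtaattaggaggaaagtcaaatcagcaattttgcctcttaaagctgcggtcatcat
GGGCGG was found in 5 of the 6 start regions of the named genes (none in DEF6) and in 48.95% of 20604 start regions of the same length. TGACNNNGC was found in DLEC1, ARHGEF28 and CCDC159, and in 12.22% of all windows. The nuclear receptor half-site AGGTCA (in 14.16% of all windows), the direct repeat of that half-site spaced by 1 base (0.03%), the forkhead motif TGTTTAC (2.68%), the E-box CACGTG (7.65%), the RFX half-site GTTGCCA (4.34%) and the TATA box TATAAA (11.62%), searched on both strands, were found in none of the 6. The marked motifs do not overlap each other in these 4 windows. These matches are letters in a window and were not tested as binding sites.

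Between 19839171 and 42446834 read pairs per liver library of the fits, and 18772230 to 24338165 per ileum library, were counted on genes. Levels are given as CPM, counts per 1000000 read pairs on genes, with library sizes scaled by the trimmed mean of M-values. Hepatocyte markers summed to between 107900 and 237200 CPM per liver, with 13 of 14 listed markers in the files. A library measure that differed between the diets was the number of read pairs that fell on no gene per 100 on genes, called the no-gene share here. It was 13 to 23.5 in the control livers, 7.54 to 14.2 with PFA, 9.19 to 12.6 with OO and 11.6 to 16.0 with OO + PFA. The highest values, 23.5 and 18.5, belonged to the control livers C-80 and C-85. A liver piece holds several cell types, so that fewer cells of one type and less RNA per cell cannot be told apart.

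ETNPPL was much lower with OO than in the control livers, whereas its PFA livers overlapped the control range in part. Of the 6 PFA livers, 3 were below every control liver. The control livers lay between 57.2 and 145.7 CPM (median 93.7), the PFA livers between 46.1 and 132.4 (median 77.1) and the OO livers between 2.63 and 51.6 (median 23.3). The 5 OO + PFA livers were at 30.8, 80.1, 84.0, 99.1 and 106.1 CPM. Every OO liver was below every control liver, 5 of the 6 OO livers were also below every PFA liver, and the OO + PFA livers overlapped the control range except for OP-105 at 30.8. The mean fell from 100.4 ± 34.7 CPM (SD, n = 6) to 26.3 ± 16.9 (n = 6) with OO, a log2 fold change of -1.93 (SE 0.45) or 3.80-fold. With PFA the mean was 83.6 ± 40.5 CPM (n = 6) and the log2 fold change -0.26 (SE 0.43). The lowest liver, OO-130 at 2.63 CPM, rests on 45 counts. ETNPPL was the most abundant of the 6 named genes per exon length, at 46.1 CPM per kb in the control livers.

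DEF6 was lower with both diets. The control livers lay between 4.26 and 7.40 CPM (median 4.87), the PFA livers between 0.551 and 3.56 (median 2.30) and the OO livers between 0.936 and 2.58 (median 1.83). The OO + PFA livers were at 2.83, 3.31, 3.44, 4.46 and 4.68 CPM. No PFA or OO liver reached the lowest control liver, whereas the OO + PFA livers stood between the OO and the control livers, above every OO liver and with 2 of 5 inside the control range. The mean was 5.22 ± 1.12 CPM in the control group, 2.15 ± 1.25 with PFA (log2 fold change -1.27, SE 0.33) and 1.74 ± 0.634 with OO (log2 fold change -1.57, SE 0.33). Since DEF6 is known from T cells, T and NK cell markers were summed over the 17 of 18 listed genes in the files, none of them at 0 in all livers. They came to 50 to 125 CPM in the control livers, 50 to 97.8 with PFA, 60.8 to 136 with OO and 51.1 to 84.4 with OO + PFA. The median log2 fold change of the 17 markers was -0.21 with PFA, where 14 of 17 were below 0. With OO it was 0.30, where 2 of 17 were below 0. The part of T and NK cells in the DEF6 levels was not tested.

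ARHGEF28, the other exchange factor, was lower with PFA alone. Its control livers lay between 2.27 and 3.49 CPM (median 2.75), the PFA livers between 1.00 and 1.80 (median 1.29) and the OO livers between 1.29 and 3.87 (median 2.90). The OO + PFA livers were at 1.23, 1.46, 2.15, 2.32 and 3.06 CPM. All PFA livers were below all control livers, 5 of the 6 OO livers were above every PFA liver, and the sixth, OO-130 at 1.29 CPM, was the lowest of its diet. OO-130 was also the lowest OO liver for ETNPPL, DEF6, DLEC1, DZANK1 and ENSSSCG00000032058. Its library had the fewest read pairs on genes of the 23 and 14.7 read pairs with several alignments per 100 on genes, against at most 8.46 in the others. Without OO-130 the log2 fold change with OO was -1.69 for ETNPPL, -1.65 for DLEC1, -1.45 for DEF6, -0.64 for DZANK1, -1.29 for ENSSSCG00000032058 and 0.17 for ARHGEF28. The mean was 2.81 ± 0.585 CPM in the control group and 1.35 ± 0.312 with PFA, a log2 fold change of -1.05 (SE 0.25). With OO it was 2.85 ± 0.884 CPM and the log2 fold change was 0.03 (SE 0.24, 95% interval -0.44 to 0.50).

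DLEC1 rests on few reads, 1 to 29 counts per liver, and was the lowest of the 6 named genes per exon length, at 0.0848 CPM per kb in the control livers. The control livers lay between 0.341 and 0.801 CPM (median 0.582), the PFA livers between 0.0501 and 0.787 (median 0.246) and the OO livers between 0.0585 and 0.302 (median 0.154). The OO + PFA livers were at 0.299, 0.340, 0.410, 0.430 and 0.609 CPM. Every OO liver was below every control liver, and so were 5 of the 6 PFA livers, the exception being P-107 at 0.787 CPM. The log2 fold change was -1.78 (SE 0.42) with OO and -0.87 (SE 0.39) with PFA. DLEC1 passed the filter through its control and OO + PFA livers: the filter level of 0.375 CPM was met by 4 control, 3 OO + PFA, 1 PFA and 0 OO livers, so a lower level with OO was part of how it came to be tested.

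DZANK1 was lower on average with both diets, but its control group was spread. The control livers lay between 45.5 and 143 CPM (median 61.1), the PFA livers between 19.3 and 45.6 (median 40.2) and the OO livers between 20.3 and 60.6 (median 43.7). The OO + PFA livers were at 39.7, 49, 49.7, 60.0 and 96.3 CPM. The 2 highest control livers were C-80 at 143 and C-85 at 92.5 CPM, the other 4 lay between 45.5 and 65.0, and 3 of the 6 OO livers overlapped them. The log2 fold change was -1.06 (SE 0.29) with PFA and -0.79 (SE 0.29) with OO.

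CCDC159 followed a like order. The control livers lay between 12.8 and 27.4 CPM (median 13.9), the PFA livers between 4.11 and 11.4 (median 8.53) and the OO livers between 7.47 and 13.7 (median 9.09). The OO + PFA livers were at 10.7, 10.7, 12.9, 13.7 and 16.9 CPM. All PFA livers were below all control livers, and 5 of the 6 OO livers were, with OO-102 at 13.7 CPM inside the control range. The log2 fold change was -1.02 (SE 0.22) with PFA and -0.72 (SE 0.22) with OO. In the annotation CCDC159 shares 7368 exon bases on the same strand with PLPPR2, a lipid phosphatase-related gene whose Ensembl identifier was not among the genes matched here, so counts under this identifier cannot be assigned to either gene.

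The 2 unnamed genes, for which no symbol or position was found in the tables used, were lower with both diets and were the 2 that also stood lower in every OO + PFA liver than in every control liver, as 1.87% of all genes did. ENSSSCG00000032058 lay between 30.6 and 93.2 CPM in the control livers (median 41.7), between 14.6 and 31.9 with PFA (median 23.4) and between 7.55 and 23.8 with OO (median 21.1). Its OO + PFA livers were at 16.6, 17.9, 22.5, 27.3 and 30.4 CPM. C-80 and C-85 were again the highest control livers, at 93.2 and 67.4 CPM, and all OO livers were below all control livers. The log2 fold change was -1.15 (SE 0.28) with PFA, -1.45 (SE 0.28) with OO and -1.15 (SE 0.30) with OO + PFA.

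ENSSSCG00000035189 varied little within the control, PFA and OO diets. The control livers lay between 34.8 and 60.1 CPM (median 48.9), the PFA livers between 29.2 and 38.5 (median 32.4) and the OO livers between 14.5 and 20.2 (median 16.9). The OO + PFA livers were at 15.5, 17.5, 18.1, 24 and 31.9 CPM. The levels formed steps, with control above PFA and PFA above OO. Of the 6 PFA livers, 4 were below all control livers, and all 6 OO livers were below all control and all PFA livers. The log2 fold change was -0.55 (SE 0.15) with PFA, -1.50 (SE 0.15) with OO and -1.19 (SE 0.16) with OO + PFA.

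**Figure D1:**
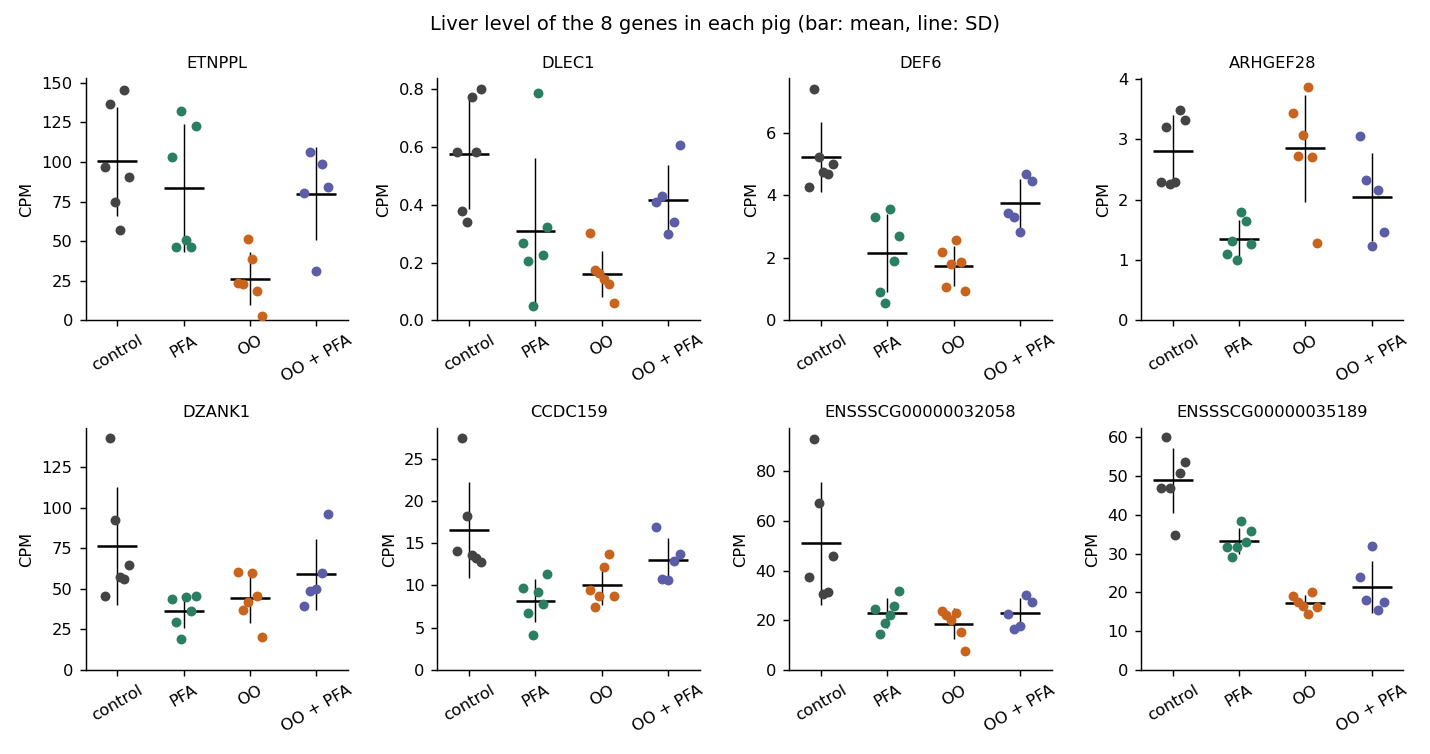
Level of each of the 8 genes in CPM (vertical axis, from 0) in each liver, by diet. Points are pigs, horizontal bars are means and vertical lines are SDs. The 6 OO livers of ENSSSCG00000035189 sit between 14.5 and 20.2 CPM, below all control and PFA livers, and the PFA livers of ARHGEF28 sit between 1.00 and 1.80 CPM, below all control livers.

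The control diet had the highest mean for 7 of the 8 genes, and ARHGEF28 was the exception, with OO marginally above control. Set side by side, the log2 fold change was below 0 in both PFA and OO livers for 7 genes, as it was for 29.4% of all 13831 genes, and it was -0.5 or less in both for 6 genes, against 3.7% of all genes. The 2 comparisons share the 6 control livers and the genes were chosen by them, so nothing is read from these counts. The 2 genes outside the 6 were ETNPPL, lower with OO but at -0.26 with PFA, and ARHGEF28, lower with PFA but at 0.03 with OO. In OO against control, every OO liver was below every control liver for ETNPPL, DLEC1, DEF6 and the 2 unnamed genes, as for 1.46% of genes. DEF6, ARHGEF28 and CCDC159 had no overlap between PFA and control livers, as 0.795% of genes did with PFA lower. For the record only, calls were counted at the 0.05 level of the adjusted p. In OO against control edgeR called 5 of the 8 genes, where it calls 2.71% of all genes. In PFA against control edgeR called 0 of the 8 and 0% of all genes, with 1522 genes at an unadjusted p under 0.05. The study's own liver comparison of these diets, which also set a fold change cutoff, reported DEF6, ARHGEF28 and PLPPR2 among its few genes. PLPPR2 is the gene that overlaps CCDC159. DESeq2 called 3 of the 8 there, DZANK1, CCDC159 and ENSSSCG00000032058. It called 0.561% of the 7660 genes to which it gave an adjusted p, and a gene without one could not be called. In that fit DEF6 was at -1.28 (SE 0.32) and ARHGEF28 at -1.06 (SE 0.25), beside -1.07 (SE 0.29) for DZANK1. Both were further from 0 in units of SE than DZANK1, so their missing call does not mark a weaker change. In OO + PFA against control edgeR called 2 of the 8, where it calls 5.08% of all genes. The rule used the values of these comparisons, or their control livers, so nothing is read from these counts, and the share of 2.71%, which is 375 genes, moved between 167 (without OO-130) and 1325 (without OO-97) when 1 liver was left out.

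**Figure D2:**
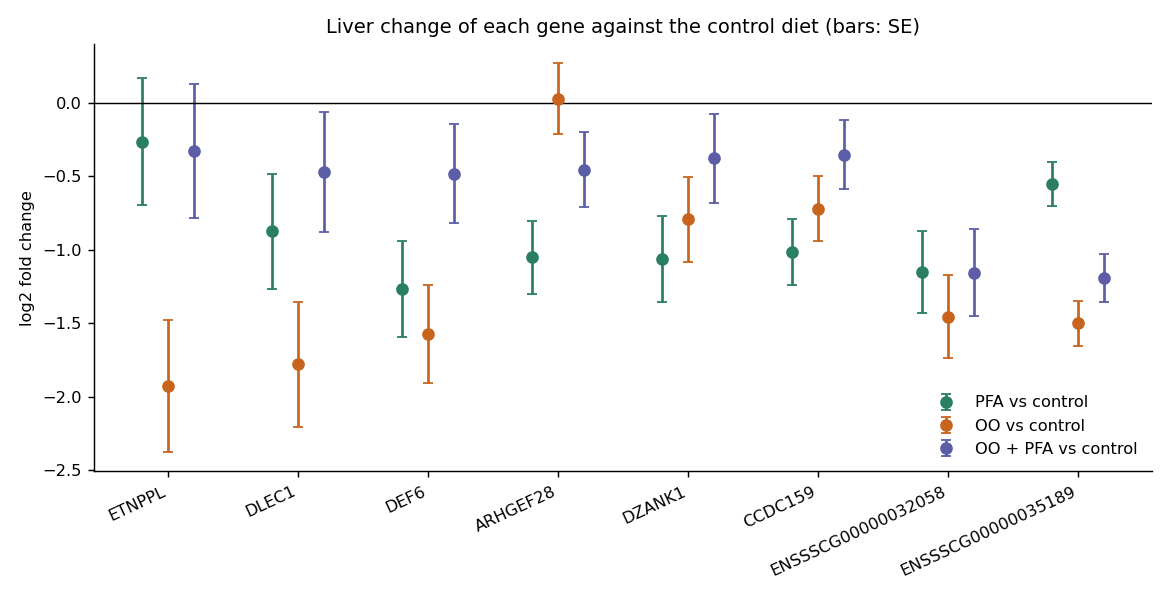
Log2 fold change (vertical axis) of each gene in the PFA, OO and OO + PFA livers against the control livers, with SE bars, 0 marked by a line. ETNPPL is at -1.93 with OO and -0.26 with PFA, ARHGEF28 is at 0.03 with OO and -1.05 with PFA, and the other 6 genes are below 0 with both.

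A further 2 comparisons share no library with the one inferred to have chosen a gene. The rule did not record which diet put each gene on the list, so this was inferred: the PFA diet for DEF6, ARHGEF28, DZANK1, CCDC159 and ENSSSCG00000032058, and the oil for ETNPPL, DLEC1 and ENSSSCG00000035189. For the effect of PFA within oil-fed pigs, OO + PFA against OO, the log2 fold change was above 0 for 4 of the first 5 genes. It was below 0 for ARHGEF28 alone, and none of the 5 was called. DEF6 was 2.13-fold higher with OO + PFA than with OO (log2 fold change 1.09, SE 0.34, 95% interval 0.42 to 1.76), every OO + PFA liver above every OO liver (as for 0.333% of genes), with an unadjusted p = 0.00433 in an exact permutation test over pigs and an adjusted p = 0.386 in edgeR. DEF6, DZANK1, CCDC159 and ENSSSCG00000032058 also stood lower with OO than in the control livers, so their OO livers may have had a part in the choice, and their tests against OO are not independent of it. ARHGEF28 had a lower mean in OO + PFA than in OO livers, as in PFA than in control livers, but the log2 fold change of -0.48 (SE 0.26, 95% interval -0.99 to 0.02) did not pass (edgeR adjusted p = 0.607). The 3 others were at 0.41 (DZANK1, SE 0.30), 0.37 (CCDC159, SE 0.23) and 0.30 (ENSSSCG00000032058, SE 0.29), with edgeR adjusted p-values of 0.719, 0.667 and 0.788. edgeR called 0 of the 5 genes and 0% of all genes in this comparison, with 1176 genes at an unadjusted p under 0.05, and DESeq2 called 0 of the 5 and 0.224% of all genes. In the same comparison T and NK cell markers had a median log2 fold change of -0.75, with 17 of 17 below 0 and 0 called by edgeR. Their part in the DEF6 levels was not tested.

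For the effect of oil within PFA-fed pigs, OO + PFA against PFA, edgeR called 1 of the other 3 genes, as lower. ENSSSCG00000035189 was at 21.4 ± 6.65 CPM (SD, n = 5) with OO + PFA and 33.3 ± 3.32 (n = 6) with PFA, 1.56-fold lower (log2 fold change -0.64, SE 0.16, edgeR adjusted p = 0.0426). Of the 5 OO + PFA livers, 4 were below every PFA liver, OP-105 at 31.9 CPM was not, and the exact permutation p over pigs was 0.00866. edgeR calls 1.58% of all genes here, and 0.333% as lower. Leaving out any 1 of these 11 livers except P-138 and OP-105 took the adjusted p of edgeR above 0.05, to between 0.0503 and 0.122, and the log2 fold change ranged from -0.83 to -0.54 over all 11. ETNPPL was at -0.06 (SE 0.45, 95% interval -0.95 to 0.82, edgeR adjusted p = 0.945). DLEC1 was at 0.40 (SE 0.42, 95% interval -0.42 to 1.23, edgeR adjusted p = 0.575). DLEC1 and ENSSSCG00000035189 also stood lower with PFA than in the control livers, so their PFA livers may have had a part in the choice. Their tests against PFA are therefore not independent of it.

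Of the 8 genes, 4 moved with the no-gene share of the library. Within diets, as deviations from the diet mean over the 23 livers, log2 CPM of DZANK1 had a Spearman coefficient of 0.849 and a Pearson r of 0.842 with it, a coefficient that 0.166% of all genes reach or exceed. ENSSSCG00000032058 had a Spearman coefficient of 0.81 (r = 0.8, reached by 0.427% of genes), DEF6 of 0.72 (r = 0.62, 1.36%) and CCDC159 of 0.649 (r = 0.679, 2.83%). Without C-80 and C-85, the 2 livers farthest from the median share, r was 0.802, 0.727, 0.681 and 0.552 in this order. The other 4 genes lay between 0.0889 (ARHGEF28) and 0.181 (ETNPPL), and at least 30.8% of genes reach such values. Without C-80 and C-85 their r was between 0.0782 (ENSSSCG00000035189) and 0.447 (DLEC1). CCDC159 also had a Spearman coefficient of 0.63 with the slope of log2 CPM on gene GC content in each library, a measure available for 79.8% of the genes tested, and the part of either measure was not tested. Level and share come from the same library, so these correlations are descriptions.

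**Figure D3:**
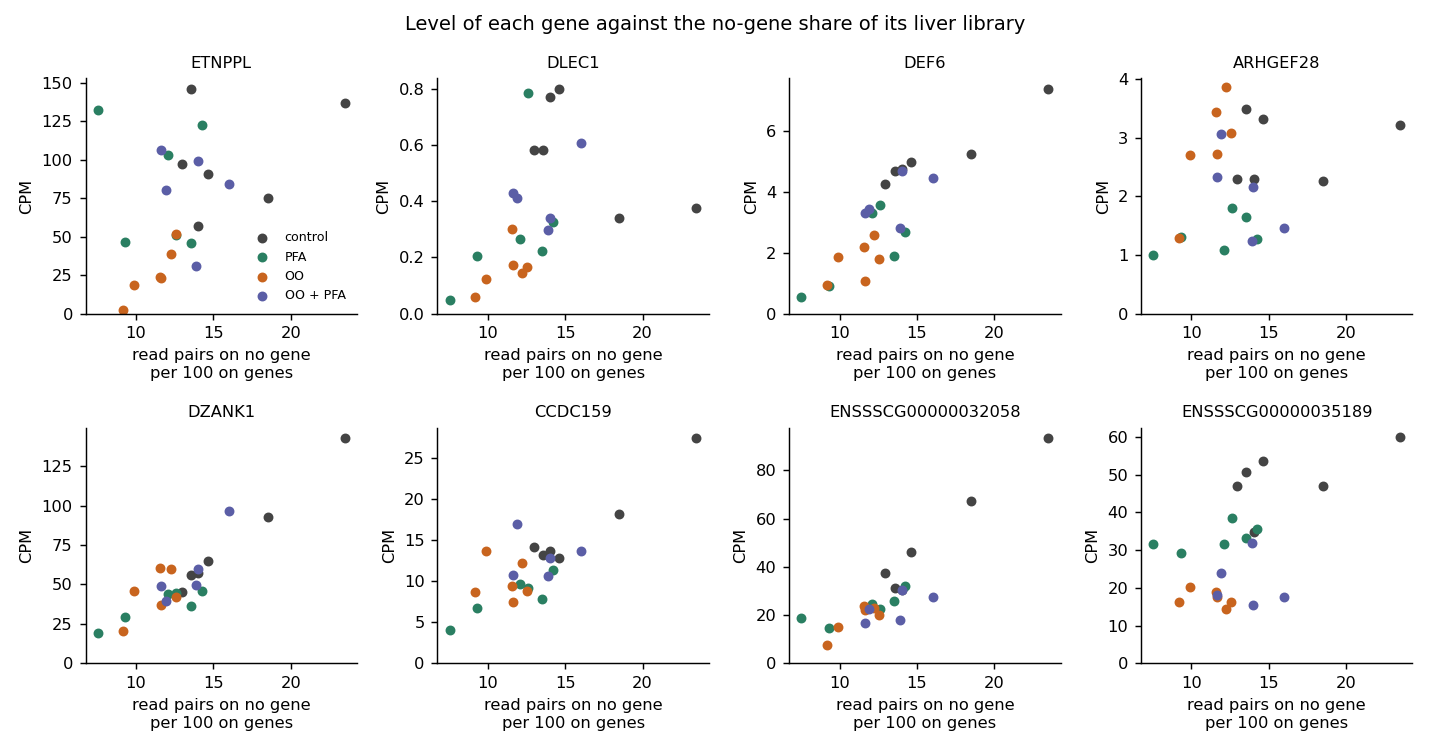
Level of each gene in CPM (vertical axis, from 0) against read pairs on no gene per 100 on genes (horizontal axis) in 23 livers, coloured by diet. DZANK1, ENSSSCG00000032058, DEF6 and CCDC159 rise with the share, with C-80 at 23.5 farthest right and highest, while the OO livers of ENSSSCG00000035189 lie below all PFA livers at shares that overlap.

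When the no-gene share was added to the model, an alternative chosen after seeing the data, these 4 genes moved and the others moved less. DZANK1 went from -1.06 to -0.22 (SE 0.20) with PFA, and from -0.79 to 0.13 (SE 0.20) with OO, a change of direction. ENSSSCG00000032058 went from -1.15 to -0.36 with PFA and from -1.45 to -0.62 with OO, and CCDC159 from -1.02 to -0.55 and from -0.72 to -0.17. DEF6 went from -1.27 to -0.74 and from -1.57 to -0.92. By contrast ARHGEF28 stayed at -0.96 with PFA, ETNPPL at -1.76 and DLEC1 at -1.74 with OO, and ENSSSCG00000035189 at -0.44 with PFA and -1.38 with OO. Without C-80 and C-85, DZANK1 was at -0.61 with PFA and -0.33 with OO. ENSSSCG00000032058 was then at -0.66 and -0.95, CCDC159 at -0.71 and -0.41, and DEF6 at -1.11 and -1.40. edgeR's count of calls in OO against control, from which again nothing is read, was 1 of the 8 with the share in the model (0.578% of all genes) and 2 of the 8 without C-80 and C-85 (0.771%). Since the share lies lower in the PFA and OO livers than in the control livers, its part and that of the diet in these 4 genes cannot be told apart in this design. The share also differed between OO + PFA (11.6 to 16.0) and OO livers (9.19 to 12.6), so the same limit holds there. In OO + PFA against OO, DEF6 lay between 0.80 and 1.11 over the alternative settings, and DZANK1 between 0.0016 and 0.50.

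**Figure D4:**
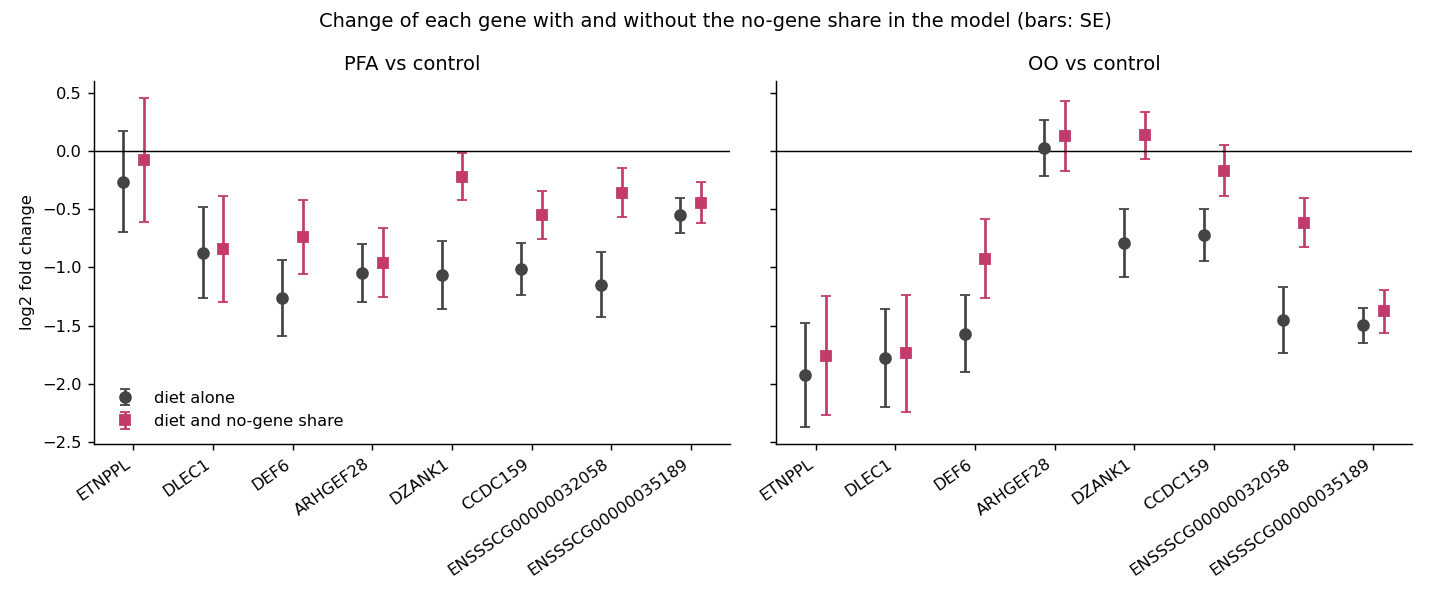
Log2 fold change (vertical axis) of each gene against control in a model of diet alone (circles) and of diet with the no-gene share (squares), with SE bars, for PFA on the left and OO on the right. DZANK1 moves from -1.06 to -0.22 with PFA, and ARHGEF28 from -1.05 to -0.96.

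The library titles come in 2 written forms, PigLiv and PL, both present in every diet, and C-80 and C-85 are the 2 control livers titled PL. What the forms stand for is not given in the sources used here. Within the PigLiv form, 4 control and 3 PFA livers, the mean log2 CPM with PFA minus control was -0.31 for DZANK1, -0.42 for CCDC159, -0.47 for ENSSSCG00000032058 and -0.55 for DEF6. Within the PL form, 2 control and 3 PFA livers, it was -2.06, -1.88, -2.04 and -2.57. With PFA the direction held in both forms while the size differed. For OO minus control, DZANK1 was at -0.02 in the PigLiv form, with means of 55.34 and 55.95 CPM, and at -1.86 in the PL form. Its lower level with OO was thus seen in the PL form only. CCDC159 was at -0.20 and -1.42, ENSSSCG00000032058 at -0.83 and -2.40, and DEF6 at -1.07 and -2.29, lower in both forms. ARHGEF28 with PFA was at -1.01 in the PigLiv form and -1.02 in the PL form. ETNPPL with OO was at -1.85 and -2.78, DLEC1 at -1.59 and -1.14, and ENSSSCG00000035189 at -1.37 and -1.67.

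The 8 genes were not alike in how they varied among pigs of 1 diet. DEF6 and DZANK1 had a Spearman coefficient of 0.829 over the deviations of the 23 livers, DZANK1 and ENSSSCG00000032058 of 0.806, and DEF6 and CCDC159 of 0.77. ARHGEF28, ETNPPL, DLEC1 and ENSSSCG00000035189 had at most 0.428 with any other gene of the list. The genes most like them over all genes kept were FNBP4, GANC and SLC17A1 for DZANK1 (Spearman coefficient 0.921 to 0.927) and RMND5B and SART3, after an unnamed gene, for DEF6 (0.914 to 0.931). For CCDC159 they were DENND4B, GRM2 and ABCC10 (0.915 to 0.934), and for ENSSSCG00000032058 NCAPD2, ANKRD42 and ALG13 (0.846 to 0.855). For ETNPPL they were SCYL3, CCDC77 and IGF2BP3 (0.713 to 0.792), for DLEC1 ZNF510, LTBP1 and FLRT2 (0.831 to 0.846), for ARHGEF28 an unnamed gene, MYCBPAP and VASH2 (0.754 to 0.819), and for ENSSSCG00000035189 ZNF892 and 2 unnamed genes (0.645 to 0.665). A coefficient above 0.8 was reached by 146 genes for CCDC159, 97 for DEF6 and 89 for DZANK1, by 18 for ENSSSCG00000032058, 8 for DLEC1 and 2 for ARHGEF28, and by 0 for ETNPPL and ENSSSCG00000035189.

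In ileum, where the level of these genes had no part in their choice, PFA lowered none of them at the threshold. edgeR called 0 of the 7 genes kept and 0% of all genes, with 401 genes at an unadjusted p under 0.05, and DESeq2 called 0 of the 7 and 0.0281% of all genes. ENSSSCG00000035189 was at 161.6, 171.4, 178.5, 180.2 and 197.6 CPM in the control ileum and at 96.2, 127, 150.2, 160.4 and 180.2 CPM with PFA. Of the 5 PFA pigs, 4 were below every control pig (log2 fold change -0.32, SE 0.15, edgeR adjusted p = 0.991, exact permutation p = 0.0476 unadjusted). DEF6, which was lower in the PFA livers, was at 4.88 ± 0.626 CPM in the control and 4.84 ± 1.15 in the PFA ileum (n = 5 each), a log2 fold change of -0.01 (SE 0.21, 95% interval -0.42 to 0.40). ARHGEF28 was at -0.20 (SE 0.26, 95% interval -0.71 to 0.31), and DLEC1 at -0.44 (SE 0.28, 95% interval -0.998 to 0.11), both with an edgeR adjusted p of 0.991.

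Liver and ileum of the same 10 pigs showed where the genes are expressed. CPM here is scaled over the 20 libraries of both tissues together, so the same livers have other values than above. edgeR called 7 of the 8 genes between the tissues, where it calls 78.3% of all genes. ETNPPL was higher in liver in 10 of 10 pigs, at 67.2 to 209 CPM against 0.157 to 2.18 in ileum (log2 fold change 7.12, SE 0.42, edgeR adjusted p = 9.2e-13), and CCDC159 likewise (log2 fold change 2.33, SE 0.23, edgeR adjusted p = 6.28e-09). DZANK1 was higher in liver in 9 of 10 pigs (log2 fold change 1.72, SE 0.24, edgeR adjusted p = 1.22e-06). ARHGEF28 was lower in liver in 10 of 10 pigs, at 1.45 to 4.99 against 14.5 to 33.1 CPM (log2 fold change -2.82, SE 0.20, edgeR adjusted p = 2.3e-11), as were DLEC1 (-1.68, SE 0.28) and ENSSSCG00000035189 (-0.89, SE 0.11). DEF6 did not pass (0.48, SE 0.29, edgeR adjusted p = 0.126). ENSSSCG00000032058 had 0 counts in 9 of the 10 ileum libraries, and 26 counts in the ileum of C-80, the pig with the highest liver level of this gene.

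The head-to-head neighbours of 3 listed genes stood near their control levels, apart from a higher mean of TMEM205 with OO. POLR3F was at 11.3 ± 1.56 CPM in the control, 10.5 ± 1.27 in the PFA and 10.7 ± 2.78 in the OO livers, log2 fold changes of -0.10 (SE 0.15) and -0.07 (SE 0.15), beside -1.06 and -0.79 for DZANK1. TMEM205 was at -0.19 (SE 0.24) with PFA and 0.49 (SE 0.24) with OO, beside -1.02 and -0.72 for CCDC159. PLCD1 was at 0.00 (SE 0.26) and -0.19 (SE 0.26), beside -0.87 and -1.78 for DLEC1. None of the 3 neighbours passed edgeR's test in PFA or OO against control, with adjusted p-values from 0.239 to 0.998. These differences between neighbours were not tested as such.

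**Figure D5:**
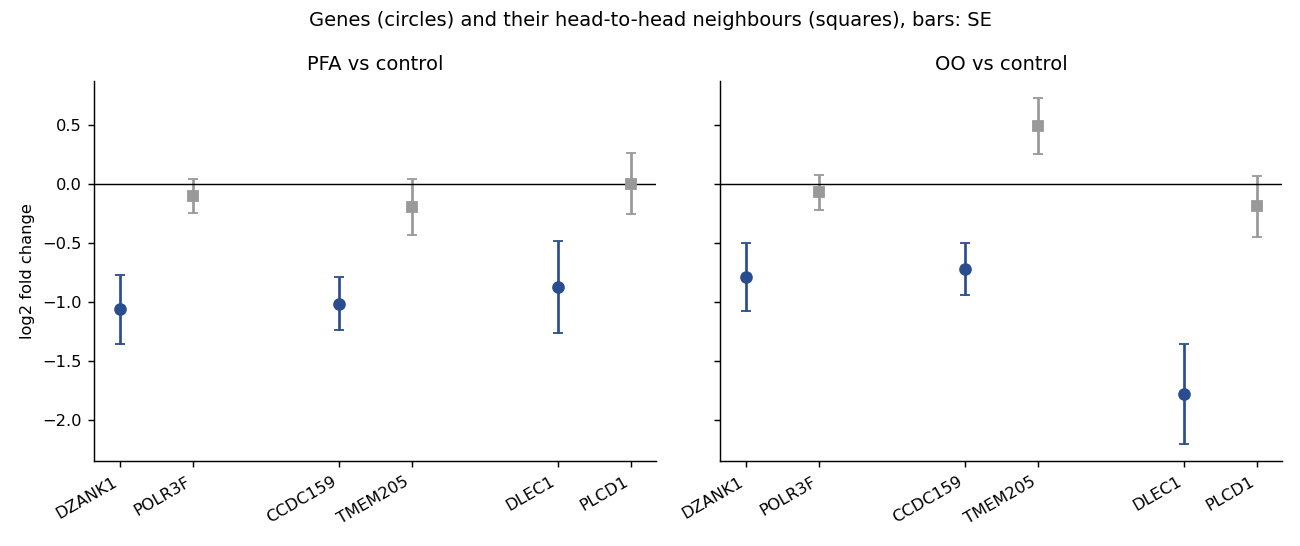
Log2 fold change (vertical axis) of 3 listed genes (circles) and of the gene whose start faces theirs (squares) in PFA and OO livers against control, with SE bars. DZANK1 is at -1.06 and POLR3F at -0.10 with PFA, and DLEC1 is at -1.78 and PLCD1 at -0.19 with OO.

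At its other end DLEC1 overlaps ACAA1, the peroxisomal thiolase gene of fatty acid oxidation, by 128 exon bases on the opposite strand. ACAA1 rose with OO, from 429.1 ± 73.2 to 694.7 ± 139 CPM (log2 fold change 0.69, SE 0.15, edgeR adjusted p = 0.0101), against the direction of DLEC1, and was at -0.35 (SE 0.14, edgeR adjusted p = 0.410) with PFA. The strand setting of the counting was not given, so reads of the shared bases cannot be told apart. DEF6 overlaps ZNF76 by 534 bases on the same strand, at only 0.422 ± 0.0759 CPM in the control livers, and PPARD, a fatty acid-sensing nuclear receptor gene 6096 bp downstream, was at -0.29 (SE 0.26) with PFA and -0.21 (SE 0.26) with OO. CCDC159 overlaps SWSAP1 by 271 bases (0.07 with PFA and 0.70 with OO, SE 0.25 each, edgeR adjusted p = 0.941 and 0.118).

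Other genes of 2 related processes were counted in the same fits, and the counts are near the shares of all genes given above. Of 15 other ethanolamine and choline phospholipid genes tested, edgeR called 0 in PFA or OO against control, with a median log2 fold change of -0.07 and 0.00 beside 0.03 and 0.06 for all genes. One was called in another comparison, the glycerophosphocholine phosphodiesterase gene GPCPD1, higher in OO + PFA than in PFA livers (26.0 against 15.2 CPM, log2 fold change 0.78, SE 0.20, edgeR adjusted p = 0.0460). Of 40 other cilium and axoneme genes, 0 were called with PFA or OO alone, and 1, CFAP221, was lower with OO + PFA than control (0.358 against 0.855 CPM, log2 fold change -1.23, SE 0.31, edgeR adjusted p = 0.0294). Its OO + PFA mean lies below the filter level of 0.375 CPM, so this call rests on few reads. The medians of the cilium list were -0.07 with PFA and 0.00 with OO.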

How the data were processed

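Poly(A) RNA of 24 livers and 10 ilea was sequenced on stranded libraries. The authors aligned the reads with STAR 2.6.1d to Sscrofa11.1 and deposited whole-number counts of read pairs per Ensembl gene from HTSeq, without normalization. Neither the annotation release nor the strand option of HTSeq is given in the sources used here. The summary lines that HTSeq adds below the genes, such as pairs on no gene, were kept out of the library sizes, and the first of them served as a library measure. The 34 columns of the series tables equalled the sample files.

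The 8 genes, the gene lists and the marker lists were chosen with earlier results of these data known. Counts were fitted with edgeR 4.0.16 in R 4.3.3 (TMM scaling, filterByExpr with a minimum count of 10, quasi-likelihood test, two-sided) over the 23 liver, 10 ileum or 20 paired-tissue libraries, with Benjamini-Hochberg adjustment over all genes kept. Single genes were also tested by exact permutation over pigs of log2 CPM (prior count 2). The pigs of a diet shared 1 pen, so p-values measure only the spread between pigs of that pen. Genes named are the 8, their neighbours within 50000 bp, the 3 most like genes by Spearman correlation and called list genes. One gene list is not reported here. The scripts were tested on simulated data. Alternatives were DESeq2 1.42.0, its size factors, no filter, all 24 livers, title form, sex (from 2 Y-linked genes) or GC slope as a term, 2 diets fitted alone and leaving out each pig. GC content was matched for 79.8% of genes tested in liver and 79.4% in ileum, under the 80% needed, so the GC check is void and the fits with the GC slope are listed only because they were planned. Symbols were matched for 14857 genes and RefSeq entries for 13751. The sequences come from the RefSeq genome Sscrofa11.1. Tables were handled with Python 3.11.15, pandas 2.3.3 and matplotlib 3.10.9.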

Additional observations from a re-analysis of the deposited data

Results flagged for a closer look

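Control liver C-80 stood apart from the other 5 control livers for DEF6, at 7.40 CPM with the next liver at 5.24, and for CCDC159, at 27.4 CPM with the next at 18.2. The same pig was apart in the control ileum for ENSSSCG00000032058, at 0.990 CPM where the other 4 libraries were at 0. Among the PFA livers P-107 stood apart for DLEC1, at 0.787 CPM with the next at 0.325. These were 4 of 48 gene and group combinations examined by the gap to the nearest sample, a rule by which chance alone marks about 1 in 20. The no-gene share of C-80, 23.5 per 100 read pairs on genes, was the highest of the livers, and its part in these values was not tested.

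The change of DEF6 with PFA went in opposite directions without and with oil, at a log2 fold change of -1.27 with every PFA liver below every control liver, and of 1.09 with every OO + PFA liver above every OO liver. This difference between the pairs of diets was not tested, since the gene was chosen by the first of them. The no-gene share also differed within both pairs, and its part cannot be told apart from that of the diet.

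The liver left out of the fits, OP-77, was above every control liver for DLEC1, at 0.980 CPM from 14 counts, and for ARHGEF28, at 3.64 CPM. For ETNPPL, at 19.3 CPM, DEF6, at 2.45, and ENSSSCG00000035189, at 14.9, it was below every OO + PFA liver of the fits. For CCDC159, at 23.7 CPM, it was above every OO + PFA liver of the fits.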

How the results depend on the processing

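The members' log2 fold changes counted as the same in 690 of 727 recomputed values. They reversed in 18, lost a call in 12, gained one in 2 and moved by more than 1 SD in 5. In liver PFA or OO against control, the same meant a move of at most 1 SD, whatever the sign. The SD is that of log2 CPM between pigs of a diet. A move of DEF6 with PFA from -1.27 to -0.74, with the no-gene share as a term, thus counts as the same. In the other comparisons it meant the same direction and the same side of the threshold. In PFA against control edgeR called 0 of the 8 genes, DESeq2 called 3 and a GC slope as a term, whose check is void, gave 1. In OO against control 5 were called, 6 by DESeq2 and with the GC slope, 3 with the 2 diets fitted alone, 1 with the no-gene share as a term and 2 without C-80 and C-85, the last 2 settings chosen after seeing the data, and between 3 and 5 when 1 pig was left out (3 without OO-102). In OO + PFA against control 2 were called, and 1 with the GC slope, with the no-gene share and without C-80 and C-85, and between 1 and 2 when 1 pig was left out (1 without C-80, C-85, C-110, OP-79, OP-98 or OP-105). In OO + PFA against PFA 1 was called, 0 without a filter, with sex or with the GC slope, 2 with all 24 livers, and between 0 and 1 when 1 pig was left out (0 without any pig but P-138 and OP-105). ENSSSCG00000035189 there had adjusted p-values (edgeR or DESeq2) from 0.00378 to 0.156 over these settings. Direction changed for DZANK1 in OO against control (0.13) and ENSSSCG00000032058 in OO + PFA against OO (-0.024), both with the no-gene share. ARHGEF28 in OO against control, at 0.03, lay within -0.08 to 0.17 when 1 pig was left out. Direction changed for ETNPPL in OO + PFA against PFA with sex (0.048) and the GC slope (0.33), within -0.19 to 0.14 when 1 pig was left out. In ileum DEF6 changed sign with sex (0.00035) and the GC slope (0.034), within -0.10 to 0.11 when 1 pig was left out, and CCDC159 lay within -0.19 to 0.11. The cause of these changes was not tested. DEF6 passed edgeR's test between tissues without pig 75 (0.63) or pig 95 (0.67).

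Over all genes edgeR called 375 in OO against control, 194 with the 2 diets alone, 224 with all 24 livers, 80 with the no-gene share, 107 without C-80 and C-85, 1081 with the GC slope and 1079 by DESeq2. No reading rests on the GC slope fits. In OO + PFA against control it called 702, with 217 without C-80 and C-85, 1530 with all 24 livers, 1690 with the diets alone and 1370 by DESeq2. In OO + PFA against PFA it called 218, with 88 under the GC slope, 140 with the no-gene share, 1225 with all 24 livers, 963 with the diets alone and 697 by DESeq2. When 1 pig was left out these counts lay between 167 (without OO-130) and 1325 (without OO-97), between 191 (without C-71 or C-100) and 703 (without C-80), and between 103 (without OP-137) and 411 (without P-138).

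Liver and ileum of the same pig are paired by animal, and with the pig as a replicate block 7 of the 8 genes were again called between the tissues. The deviations of the 2 tissues of a pig correlated between -0.204 and 0.483. Between diets no pig is shared, so no paired fit was possible there. DLEC1, at 1 to 29 counts per liver, is at the limit of what this depth can show.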
